A study of Eragrostis tef with 16 samples.

Results

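Among the genes of tef whose mRNA was lower in low calcium roots, a small set was at the same time higher in low calcium shoots. The set holds 70 genes of the 68255 in the count table, and of the 56746 with a count in at least 4 libraries. Its members were chosen by their values in CPM, the count of a gene per 1e+06 counts of its library. A gene had to average at least 2 CPM in control roots and at least 1 CPM in low calcium shoots. Every low calcium root library had to lie below every control root library, with a ratio of the means (0.5 CPM added to each) of at most 0.67. Every low calcium shoot library had to lie above every control shoot library, with a ratio of at least 1.5. The mean in low calcium roots also had to exceed 0.5 times the mean in low calcium shoots. These criteria used all 4 groups and all 16 libraries, so the values of the members below describe what was selected and test nothing.

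The shoot depends on the transpiration stream for its calcium, because phloem sap carries very little of it and old leaves give almost none back. Young tissue with low transpiration therefore runs short before the rest of the plant. Changes in cytosolic Ca2+ are read by calmodulins, calcineurin B-like proteins and calcium-dependent protein kinases, and pumps and exchangers return the ion to the vacuole or the wall. Tef is an allotetraploid grass, and its gene identifiers carry the chromosome and the subgenome, A or B.

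The plants came from 1 tef accession grown for a month in hydroponic culture. LCR and LCS are the roots and shoots of plants that received 0.01 mM Ca2+, and ConR and ConS those of plants that received 1 mM Ca2+, with 4 biological replicates in each of the 4 groups. Libraries carry the numbers of their labels, S1 to S4 for LCR, S9 to S12 for ConR, S5 to S8 for LCS and S13 to S16 for ConS. RNA came from bulk roots and shoots, so a lower value can come from fewer cells of a type or from less mRNA per cell, and these cannot be told apart.

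Total counts ran between 6276818 and 10166944 in LCR, 11587068 and 17659238 in ConR, 9959542 and 11720368 in LCS, and 14640539 and 15590039 in ConS. Scaling mattered more between tissues than within roots. With plain totals, the log2 fold changes of all tested genes had a median of 0.04 between LCR and ConR, 0.31 between LCS and ConS, 0.36 between LCR and LCS, and 0.69 between ConR and ConS. With TMM scaling, which removes a shift shared by most genes, these medians were 0.03, 0.11, -0.03 and 0.10. Of the 70 members, 49 met the same criteria in TMM-scaled CPM and 40 in CPM on DESeq2 size factors. Marker genes of roots and shoots are not annotated in the sources used here, so the tissue labels were not checked against named markers.

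The root criteria were met by 1258 genes, which is 2.22% of the genes tested, and the shoot criteria by 6874 genes, or 12.1%. Both were met by 82 genes, of which 11 were left out because LCS exceeded LCR too far. Of the remaining 71 genes 1 was set aside, because it belongs to the calcium signalling genes that the study lists by name (CDPK12, described at the end). Of the same 1258 genes that were lower in LCR, 157 were lower in LCS as well by the mirrored criteria, and 1019 met neither the shoot criteria nor their mirror.

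**Figure D1:**
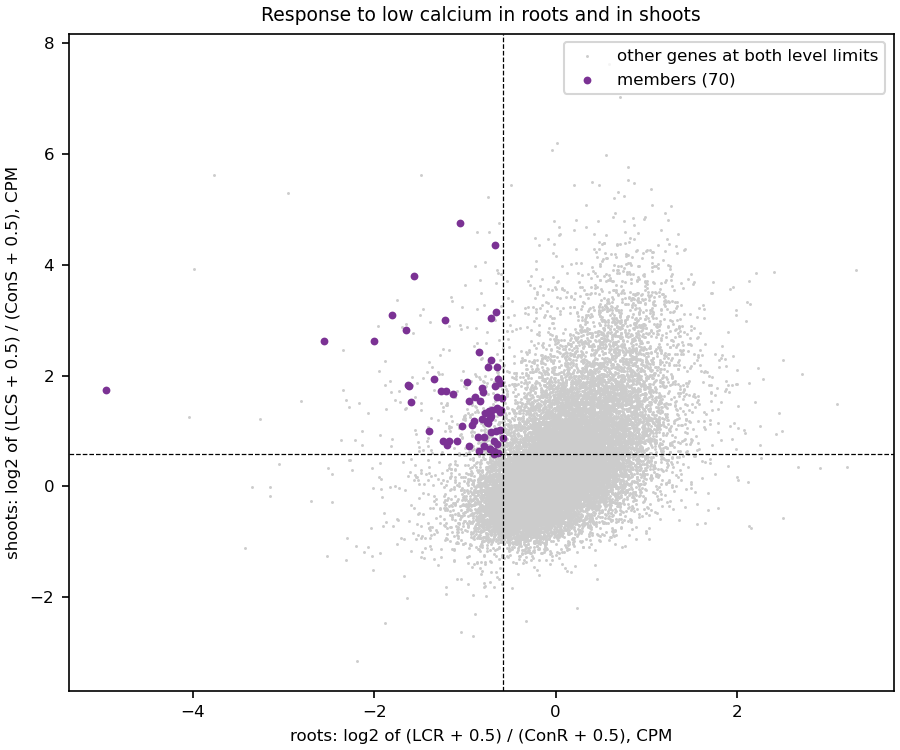
Each point is a gene that reached 2 CPM in ConR and 1 CPM in LCS. The x axis gives the log2 ratio of low calcium to control roots and the y axis that of low calcium to control shoots, both of group means with 0.5 CPM added; the 70 members are purple, the other 30092 tested genes grey, and dashed lines mark the ratio limits of 0.67 and 1.5. Members fill the upper left corner by construction, and grey points inside it failed the separation of libraries or the limit on LCR over LCS, apart from CDPK12, which met them.

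Summed over the 70 members, LCR libraries held 3241, 3439, 3690 and 3515 CPM, and ConR libraries 6815, 5777, 7926 and 7048 CPM. LCS libraries held 1524, 1389, 839 and 2597 CPM, against 387, 445, 350.3 and 517 CPM in ConS libraries. No LCR sum reached the lowest ConR sum, and the lowest LCS sum, that of S7, lay above the highest ConS sum. The group means were 3471 ± 186 CPM in LCR and 6892 ± 883 CPM in ConR, a ratio of 0.504, and 1587 ± 735 CPM in LCS against 425 ± 72.7 CPM in ConS, with a ratio of 3.74 (SD, n = 4 each). In order of level the groups ran ConR, LCR, LCS and ConS, and no libraries of neighbouring groups overlapped in this sum. The ConR sum was 16.2 times the ConS sum, while the LCR sum was 2.19 times the LCS sum.

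Single members spanned a wide range of levels. Mean levels had a median of 20.9 CPM in LCR, 44.5 CPM in ConR, 6.31 CPM in LCS and 1.70 CPM in ConS. In ConR 18 members averaged 100 CPM or more and 11 averaged less than 10 CPM. In ConS 15 averaged below 0.5 CPM, and 4 (Et_5B_044666, Et_1B_011661, Et_4B_037278 and Et_2A_015798, listed for this after their values were seen) had a count of 0 in at least 1 library. No member had a count of 0 in a library outside ConS. Summed over the 4 libraries of a group, a member had a median of 718 reads in LCR, 2450.5 in ConR, 269 in LCS and 102.5 in ConS. In ConS 10 members had fewer than 10 reads in every library, and for these the shoot ratio is the least precise value.

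**Figure D2:**
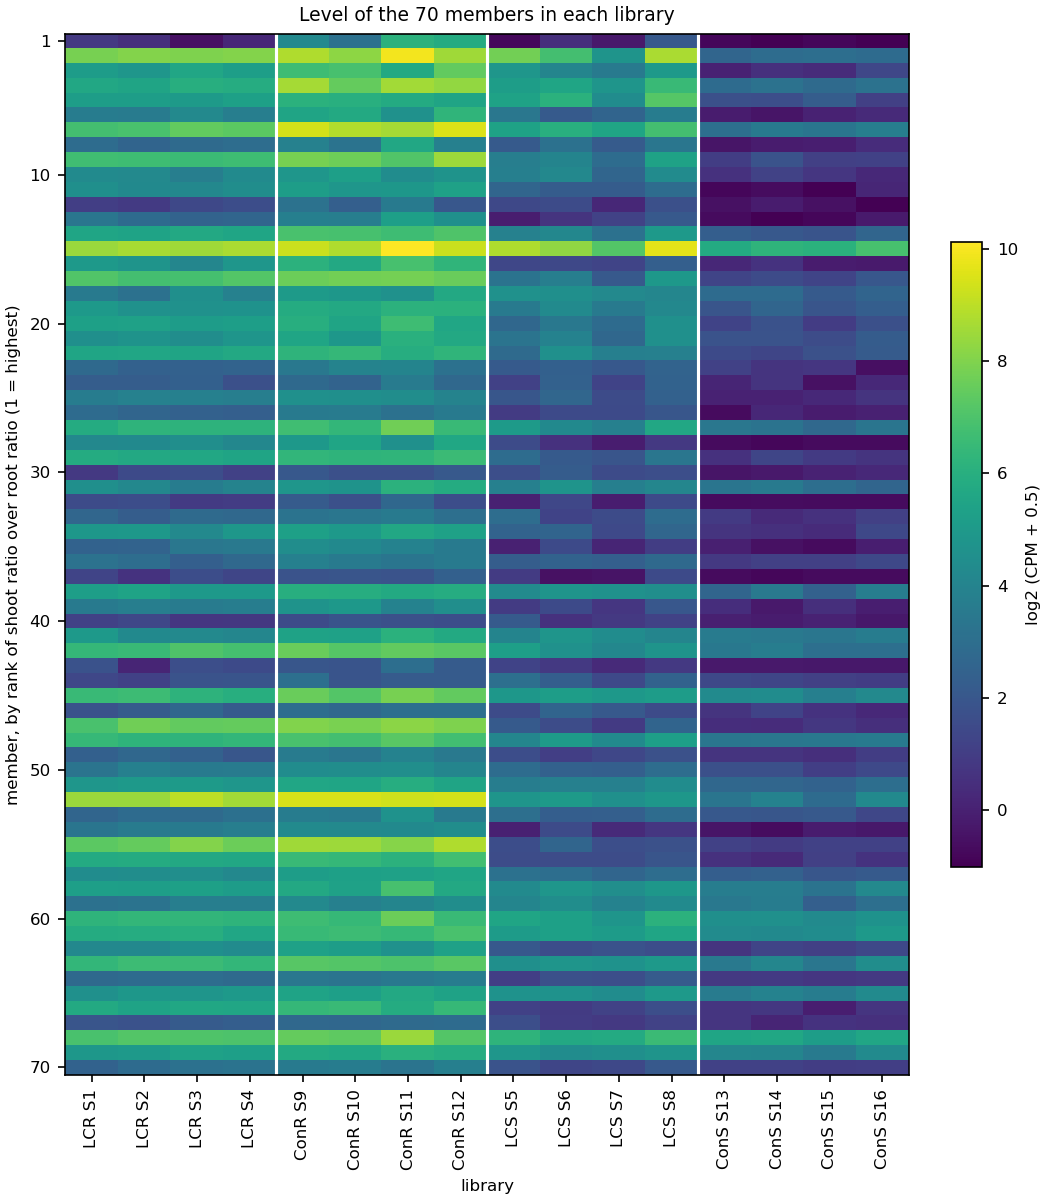
Each row is a member, ordered by its shoot ratio over its root ratio with the highest at the top, and each column a library, in the order LCR, ConR, LCS, ConS. Colour gives log2 of CPM plus 0.5. Columns of ConR are the brightest block and columns of ConS the darkest for nearly every row, with LCR and LCS between them.

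In roots the ratio of LCR to ConR had a median of 0.577 over the members and ran between 0.0323 and 0.668. The median over the 30092 other tested genes at the same level limits was 0.948. At most 0.5 was found in 21 members, and 29 lay above 0.6, close to the limit. In the edgeR fit over all genes, 28 of the 70 passed an adjusted p of 0.05 as lower in LCR, and 42 did not. The same call was made for 1.33% of all genes tested, and nothing is read from the comparison, since members were selected on this contrast. The median log2 fold change was -0.81, between -5.70 and -0.59. The count of 28 depended on single libraries: it was 13, 11, 18 and 10 without LCR S1, S2, S3 and S4, 17 without ConR S9 and 14 without ConR S12. Over all genes tested, 755 were called lower in LCR with every library kept. That number was 217, 175, 706 and 165 without LCR S1, S2, S3 and S4, 308 without ConR S9 and 260 without ConR S12. Every LCR library lay below every ConR library in all members by selection, and in 5.87% of all genes.

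In shoots the ratio of LCS to ConS had a median of 2.62 and ran between 1.51 and 26.8, against a median of 1.10 over the other genes at the level limits. It was at least 4 in 14 members and below 2 in 19. The edgeR fit called 61 members higher in LCS, against 16.7% of all genes tested. Every LCS library lay above every ConS library in all members by selection, and in 15.97% of all genes. The median log2 fold change was 1.67, between 0.41 and 4.65, the highest being that of Et_5B_044666, which rests on 2 ConS reads and was not called with limma-voom, without LCS S8 or without ConS S16. Members called in both tissues numbered 23, and 12, 11, 15 and 10 without LCR S1, S2, S3 and S4, 14 without ConR S9 and 13 without ConR S12. In neither tissue were 4 called, namely Et_2B_021314, Et_4A_032732, Et_3B_030676 and Et_3A_025190, a count that was 2 without ConR S11 and 7 to 10 without any 1 of the LCR libraries, ConR S9, ConR S12 or ConS S15. How many of all genes tested were called in both tissues or in neither was not counted, so nothing is read from these numbers. The difference between the responses of shoot and root was called above 0 in 69 of 70 members and in 5.20% of all genes, and the member not called was Et_3B_030676.

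The calls in roots were spread over the whole range of shoot ratios, and the counts that follow are shares of the same 28 calls and move with them. Of the 14 members with a shoot ratio of at least 4, 5 were called lower in LCR, and their median root ratio was 0.520. Of the 37 with a shoot ratio between 2 and 4, 10 were called in roots, with a median root ratio of 0.574. Of the 19 below 2, 13 were called in roots, with a median root ratio of 0.605. Because genes were kept only when libraries did not overlap in either tissue, these counts describe the set and say nothing of genes outside it. By level, 7 of the 18 members of at least 100 CPM in ConR were called in roots, 20 of the 41 between 10 and 100 CPM, and 1 of the 11 below 10 CPM. The share of all genes called in each of these classes was not counted.

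The highest shoot ratio relative to the root ratio was that of Et_5B_044666. Its libraries held 1.27, 0.924, 0.197 and 0.675 CPM in LCR, against 18.1, 8.38, 71.0 and 57.7 CPM in ConR. The root log2 fold change was -5.70 ± 0.80 (SE), the lowest of the members. In shoots it rested on few reads, with 1, 9, 4 and 38 reads in LCS S5 to S8 and 1, 0, 1 and 0 reads in ConS S13 to S16. Per total count the 52 LCS reads against 2 ConS reads gave a ratio of 36.2, with an exact 95% interval of 9.52 to 306 that covers counting error only. LCS S8 alone supplied 38 of the 52 reads, and the separation of LCS S5 from ConS S13 and S15 was that of 1 read in a smaller against 1 read in a larger library. Its shoot ratio of 3.35 with 0.5 CPM added was 1.76 without LCS S8, and it did not meet the criteria with TMM or DESeq2 scaling.

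Et_4A_032822 had the largest shoot ratio, 26.8. Its LCR libraries were tightly grouped at 230.2, 263, 248 and 262 CPM, and its ConR libraries were not, at 451, 299, 958 and 369 CPM. In shoots it had 217, 111, 26.7 and 424 CPM in LCS, against 5.73, 7.04, 7.51 and 6.86 CPM in ConS. Every ConS library was thus under 10 CPM, and 3 of the 4 LCS libraries exceeded 100 CPM. The shoot log2 fold change was 4.53 ± 0.57 and the root one -1.05 ± 0.49 (SE), which was not called. LCS S8 lay within the ConR range, while LCS S7 lay far nearer to ConS, and the shoot ratio was 16.3 without S8.

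Et_4B_036681 averaged more in LCS than in ConR. It had 41.6, 67.6, 20.8 and 145 CPM in LCS, against 2.83, 2.66, 4.32 and 1.67 CPM in ConS, for a shoot log2 fold change of 4.27 ± 0.43. Its roots held 35.8, 36.3, 33.2 and 39.04 CPM in LCR, against 67.4, 63.4, 54.6 and 45.1 CPM in ConR. The root groups were separated by a narrow gap, and the log2 fold change of -0.67 ± 0.37 was not called. The LCS libraries spread over more than the whole range of both root groups. Without LCS S8 its shoot ratio of 20.6 was 13, and it did not meet the criteria with TMM or DESeq2 scaling.

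Et_6B_049569 and Et_6A_047661 had marked differences in both tissues. Et_6B_049569 had 50.8, 44.0, 62.7 and 57.8 CPM in LCR, against 393, 180.4, 382 and 323 CPM in ConR, and 36.3, 46.3, 27.3 and 92.4 CPM in LCS, against 7.01, 8.74, 6.78 and 8.60 CPM in ConS. Its root log2 fold change was -2.57 ± 0.28 and its shoot one 2.44 ± 0.28, so that the roots and shoots of low calcium plants came to nearly the same level, 53.8 ± 8.17 and 50.6 ± 28.9 CPM (SD, n = 4 each). Et_6A_047661 had 110.2, 122, 176 and 159 CPM in LCR, against 686, 465, 397 and 737 CPM in ConR, and 41.6, 64.6, 45.8 and 111 CPM in LCS, against 7.88, 11.1, 9.50 and 12.8 CPM in ConS. Its log2 fold changes were -2.01 ± 0.26 in roots and 2.43 ± 0.27 in shoots. The highest LCS library, S8, just passed the lowest LCR library, S1, so the low calcium tissues overlapped, whereas the control tissues were far apart.

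Et_2B_021524 and Et_2B_021532 carry identifier numbers that differ by 8 and had similar root profiles. Et_2B_021524 had 35.4, 28.0, 47.8 and 37.5 CPM in LCR, against 101, 116, 53.4 and 172 CPM in ConR, and 28.6, 16.3, 11.3 and 30.8 CPM in LCS, against 0.539, 0.956, 0.797 and 2.12 CPM in ConS. Et_2B_021532 had 12.3, 12.02, 18.6 and 12.8 CPM in LCR, against 44.1, 53.6, 24.3 and 77.7 CPM in ConR, and 10.1, 3.97, 5.55 and 12.3 CPM in LCS, against 0.404, 0.273, 0.531 and 0.770 CPM in ConS. Within LCR the libraries stood in the same order for both genes, with S3 highest and S2 lowest, and within ConR as well, with S12 highest and S11 lowest. The order differed in shoots, where LCS S7 was lowest for Et_2B_021524 and LCS S6 for Et_2B_021532, and ConS S13 was lowest for Et_2B_021524 and ConS S14 for Et_2B_021532. Their log2 fold changes were -1.57 ± 0.33 and -1.84 ± 0.32 in roots and 4.06 ± 0.40 and 3.74 ± 0.41 in shoots. Only reads that mapped to 1 place were counted, and whether these genes are copies of each other was not examined, since no annotation was used. The other members with close numbers, Et_1B_012305 and Et_1B_012310, differ by 5 and had root libraries alike in part. In LCR, S1 was highest in the one and S2 in the other, while in ConR both were highest in S9 and lowest in S11.

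The size of the root difference of Et_5A_040757 rested largely on 1 library. This gene had 7.17, 5.55, 6.59 and 7.31 CPM in LCR, against 14.1, 8.83, 51.1 and 13.9 CPM in ConR. Its root log2 fold change of -1.73 ± 0.44 was -0.87 without ConR S11 and was then no longer called. The root ratio of 0.318 was 0.560 without S11, so the gene still met the root criteria. In shoots it had 3.91, 8.25, 4.10 and 9.84 CPM in LCS, against 0.270, 0.410, 0.465 and 0.834 CPM in ConS, with a shoot log2 fold change of 3.46 ± 0.55. The LCS libraries lay on both sides of the LCR libraries.

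**Figure D3:**
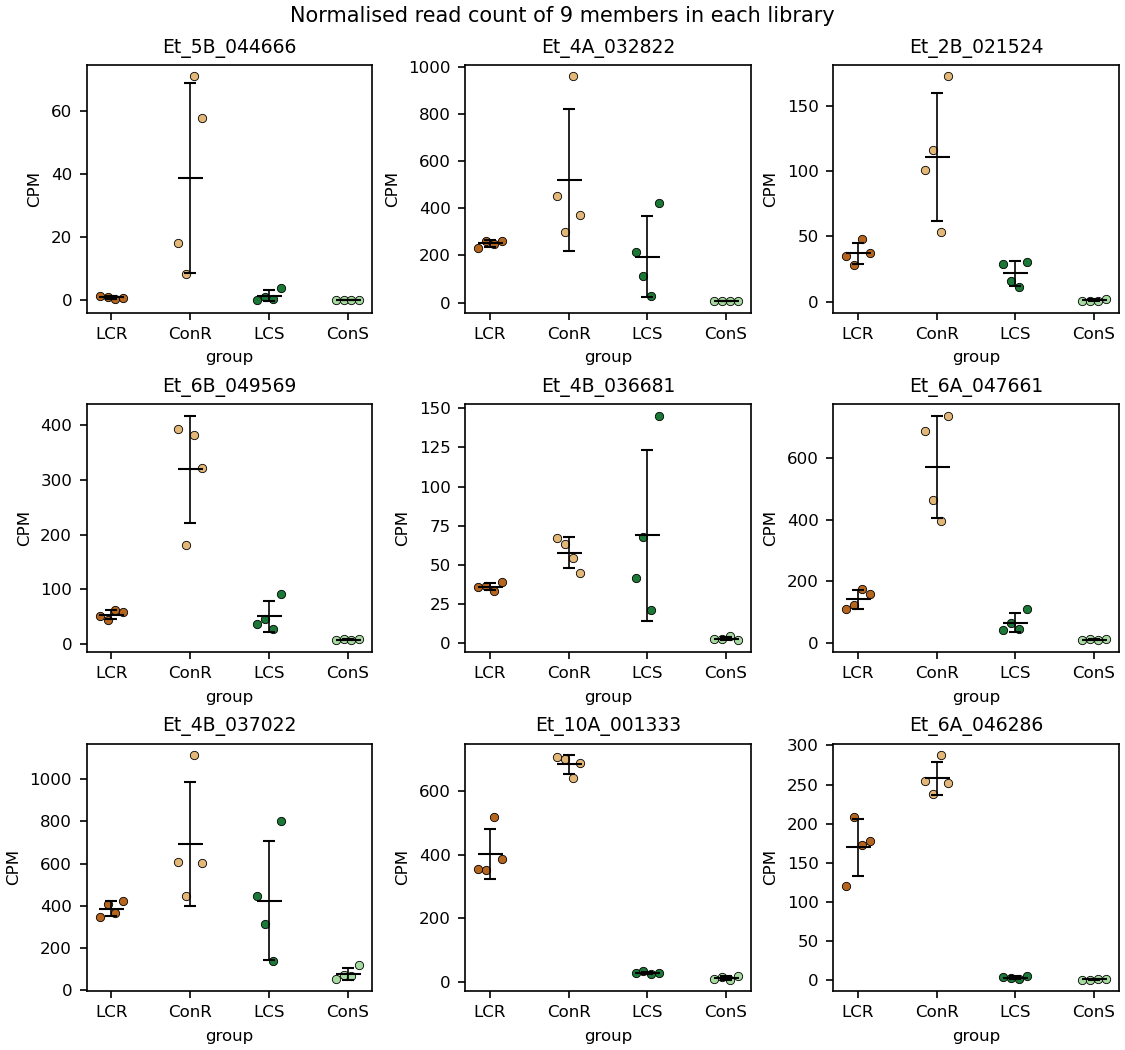
CPM of 9 members in each library, with groups on the x axis in the order LCR, ConR, LCS, ConS. Points are libraries, horizontal marks the group mean and bars 1 SD (n = 4). LCR points lie below ConR points and LCS points above ConS points in every panel, while the overlap of LCR with LCS differs among genes, the LCR range lying inside the LCS range in Et_4A_032822 and far above it in Et_10A_001333.

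The most abundant members in control roots were Et_4B_037022 and Et_10A_001333. Et_4B_037022 had 348, 407, 365 and 423 CPM in LCR, against 608, 444, 1114 and 602 CPM in ConR, and 447, 313, 139 and 800.0 CPM in LCS, against 55.2, 74.9, 67.6 and 119 CPM in ConS. Its LCS mean of 425 ± 280.1 CPM stood beside an LCR mean of 386 ± 35.0 CPM (SD, n = 4 each). The shoot log2 fold change was 2.16 ± 0.37 and the root one -0.84 ± 0.36, which was not called. Et_10A_001333 had 354, 353, 519 and 387 CPM in LCR, against 705, 702, 640.3 and 687 CPM in ConR, and 27.6, 33.1, 23.8 and 28.7 CPM in LCS, against 9.37, 14.5, 6.97 and 18.8 CPM in ConS. The root log2 fold change of Et_10A_001333, -0.77 ± 0.22, was not called either. At low calcium the shoot and root libraries of Et_4B_037022 overlapped, whereas Et_10A_001333 had a ratio of LCR to LCS of 14.02 (0.5 CPM added).

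With 0.5 CPM added to each mean, the 3 members with the largest ratio of ConR to ConS were Et_6A_046286, Et_9A_062463 and Et_4B_040060, with 177, 168 and 92.7. By plain means the ratio was largest in Et_5B_044666, whose ConS mean was 0.0862% of its ConR mean. Et_9A_062463 had 161, 178, 265 and 195 CPM in LCR, against 373, 360.0, 273 and 442 CPM in ConR, and 2.61, 5.76, 2.73 and 2.91 CPM in LCS, against 1.75, 1.43, 1.73 and 1.73 CPM in ConS. Its shoot log2 fold change of 0.87 ± 0.28 was 0.49 without LCS S6 and then not called. Et_6A_046286 had 121, 208, 172 and 177 CPM in LCR, against 255, 238, 288 and 251 CPM in ConR, and 3.91, 2.48, 1.37 and 5.42 CPM in LCS, against 0.876, 0.820, 1.26 and 0.898 CPM in ConS. The root log2 fold change of Et_6A_046286, -0.61 ± 0.24, was not called, and this gene did not meet the criteria with TMM or DESeq2 scaling. With 0.5 CPM added, the ratios of LCR to LCS in Et_9A_062463 and Et_6A_046286 were still 50.04 and 44.8. Et_4B_040060 had 104, 99.8, 96.2 and 100.2 CPM in LCR, against 231, 201, 137 and 363 CPM in ConR, and 12.9, 15.7, 7.17 and 42.6 CPM in LCS, against 1.55, 3.14, 1.66 and 1.73 CPM in ConS. Its LCS level came closest of the 3 to that of the root, with a ratio of LCR to LCS of 5.01 (0.5 CPM added). Its shoot ratio of 7.96 was 4.92 without LCS S8, and its root log2 fold change of -1.21 ± 0.35 was not called.

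At the weak end, Et_3B_030676 was among the most abundant members in LCS but barely met the limits. It had 123, 141, 133 and 129.7 CPM in LCR, against 179, 165, 354 and 143 CPM in ConR, and 74.3, 51.7, 54.4 and 96.5 CPM in LCS, against 46.4, 48.4, 36.0 and 47.3 CPM in ConS. The root groups were separated only by the gap between 141 CPM in LCR S2 and 143 CPM in ConR S12. Its log2 fold changes were -0.68 ± 0.24 in roots and 0.41 ± 0.24 in shoots, neither of which was called. With TMM or DESeq2 scaling it did not meet the criteria.

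The ratio of root to shoot, here of means with 0.5 CPM added, was lower at low calcium than at control in every member, as the criteria require. At control, roots exceeded shoots with a median ratio of 11.7 (1.93 to 177), and every ConR library lay above every ConS library in all 70 members, a separation seen in 39.6% of all genes. The limits on the ratios already place ConR above ConS on the mean, so this direction was fixed by selection. The ratio of LCR to LCS had a median of 1.84 (0.528 to 50.04). Every LCR library lay above every LCS library in 41 members and in 29.00% of all genes, and in 1 member, Et_1B_013814, every LCR library lay below every LCS library. Among the other genes at the level limits the median ratios were 1.57 for ConR over ConS and 1.32 for LCR over LCS.

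With TMM scaling the tissue contrast was called higher in ConR than in ConS for 68 members, against 28.7% of all genes, and not for Et_5B_043703 and Et_1B_013814. At low calcium 34 members were called higher in LCR than in LCS, against 20.01% of all genes, 5 were called lower, against 22.7%, and 31 were not called. The limit on LCR over LCS left out genes far higher in LCS, so the number called lower was held down by selection. The members' median log2 fold change between roots and shoots was 3.39 at control and 0.56 at low calcium. For 14 members the sign of LCR vs LCS changed with the scaling, the filter, the tool or the library left out. The 5 called lower in LCR were Et_4B_036681, Et_7B_055200, Et_8B_060375, Et_5B_043703 and Et_1B_013814, of which Et_7B_055200 and Et_8B_060375 were picked out after their values were seen. In 3 of them, Et_4B_036681, Et_5B_043703 and Et_1B_013814, the LCS mean in plain CPM passed even the ConR mean. None of these 3 met the criteria with TMM or DESeq2 scaling, and neither did Et_8B_060375.

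Et_1B_013814 had the lowest ratio of ConR to ConS among the members, 1.93 with 0.5 CPM added. It had 8.44, 9.04, 12.98 and 13.2 CPM in LCR, against 18.3, 13.7, 16.03 and 21.7 CPM in ConR, and 16.4, 21.5, 14.8 and 19.6 CPM in LCS, against 10.4, 12.2, 4.65 and 7.95 CPM in ConS. The ranges of ConR and LCS overlapped almost fully, and those of LCR and ConS overlapped below them. Et_5B_043703 showed the same order of group means at a lower level, with 2.07, 1.75, 3.15 and 3.15 CPM in LCR, against 7.85, 3.23, 4.08 and 4.06 CPM in ConR, and 7.83, 4.47, 2.22 and 5.22 CPM in LCS, against 2.16, 1.98, 1.66 and 1.54 CPM in ConS. Et_2A_017303, the next in line, had 23.6, 28.97, 27.4 and 31.1 CPM in LCR, against 42.9, 38.6, 51.6 and 42.0 CPM in ConR, and 24.7, 24.6, 20.5 and 30.5 CPM in LCS, against 11.9, 14.6, 12.4 and 19.6 CPM in ConS. The LCR and LCS libraries overlapped in part, and its means were 27.8 ± 3.16 CPM in LCR and 25.1 ± 4.13 CPM in LCS (SD, n = 4 each). Et_2A_017303 did not meet the criteria with TMM or DESeq2 scaling.

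**Figure D4:**
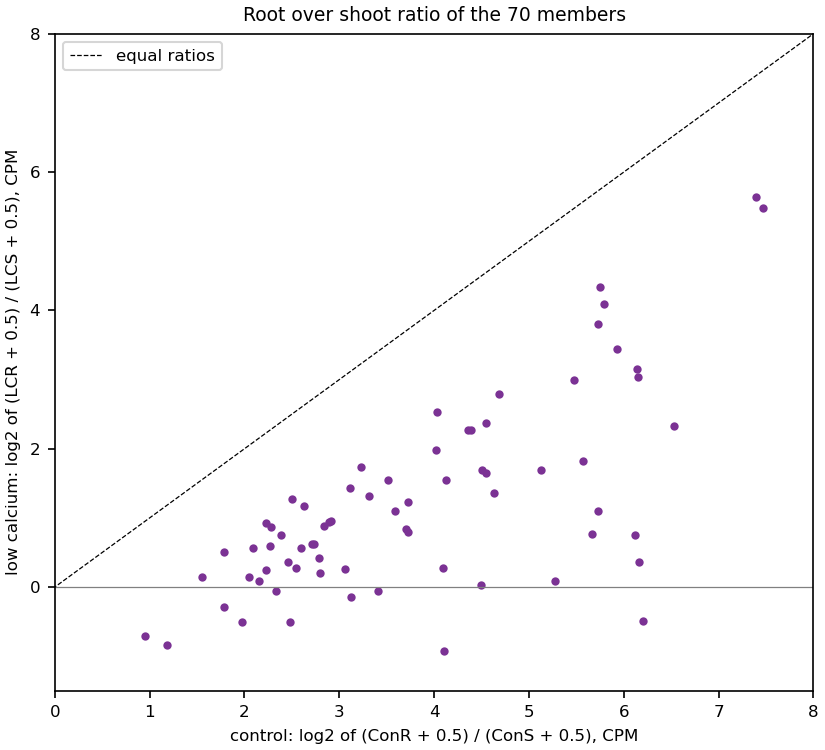
Each point is a member. The x axis gives the log2 ratio of root to shoot at control calcium (ConR over ConS) and the y axis the same ratio at low calcium (LCR over LCS), from means with 0.5 CPM added; the dashed line marks equal ratios and the grey line no difference between low calcium tissues. All 70 points lie below the dashed line, as selection requires, and members with the highest control ratios are spread widely at low calcium, from below 0 to above 5.

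The libraries of a group did not contribute alike. In LCS the median coefficient of variation of the members was 38.8%, against 23.5% for the other genes at the level limits. In LCR it was 15.6% against 16.6%, in ConR 19.8% against 19.2%, and in ConS 28.5% against 21.9%. The sets were not matched on level, and counting error is relatively larger at low levels. Median levels of the members were 6.31 CPM in LCS and 1.70 CPM in ConS, against 10.4 and 8.69 CPM for the other genes. LCS S8 was the highest LCS library for 44 members and lay above the group mean for 62 of 70, with a median deviation of 0.40 on the log2 scale, while all expressed genes deviated by 0.15 in that library. LCS S7 was the lowest for 35 members and the highest for 0, with a median deviation of -0.34, against -0.12 for all expressed genes. In 27 members the highest LCS library was at least 3 times the lowest. These counts of members by library were not made over all genes, so nothing is read from them. The ratio of summed levels, LCS over ConS, was 2.94 without S8 and 4.32 without S7.

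In ConR the members divided by library. S11 was the highest ConR library for 33 members and the lowest for 22, and S10 the lowest for 34. Et_4A_032822, Et_4B_037022, Et_5A_040757 and Et_3B_030676 were among those highest in S11, whereas Et_2B_021524, Et_2B_021532, Et_6A_047661 and Et_4B_040060 were lowest there and highest in S12. Without ConR S11, 57 of the 71 genes that met the criteria still met them. The highest ConR library was at least 3 times the lowest in 6 members. In LCR this was so for 2 members, and no LCR library was the highest for more than 22 of 70. The median coefficient of variation was lowest in LCR. The counts of members by root library were likewise not made over all genes.

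The LCS libraries in which the members were high also held more of other root transcripts. A list of 167 genes outside the set had at least 20 CPM in LCR and in ConR and at most 0.5 CPM in every ConS library, which makes them root-borne in these data. Their summed level was 227, 211, 103 and 591 CPM in LCS S5, S6, S7 and S8, between 31.2 and 35.9 CPM in ConS, between 6245 and 7904 CPM in LCR, and between 4848 and 6961 CPM in ConR. S8 was thus the highest and S7 the lowest LCS library for this list, as for the members. In 52 of the 167 every LCS library lay above every ConS library, and 96 averaged at most 0.5 CPM in LCS. Among 132 shoot-borne genes chosen by the same limits the other way, the summed level was 46.1 to 55.6 CPM in LCR, 28.8 to 33.6 CPM in ConR and 4139 to 6035 CPM in LCS.

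Relative to LCR, members and root-borne genes, which were chosen by different limits, stood at different levels in LCS. Root-borne genes stood in LCS at a median of 1.04% of their LCR level (quartiles 0.629% and 2.78%), or 3.84% of the summed level. Members stood at a median of 52.3% (quartiles 27.3% and 81.8%). The 30092 other genes at the level limits stood at a median of 74.6% (quartiles 52.6% and 107%). Without LCS S8 these medians were 0.960% and 45.1%. At 10% or more were 64 of 70 members and 14 of 167 root-borne genes, and at 50% or more 37 members and 2 root-borne genes. Only Et_6A_046286 and Et_9A_062463, at 1.94% and 1.75%, did not exceed the 3.84% of the root-borne list. The limits of the list hold LCR high and ConS low and do not hold LCS high. Members were required to reach 1 CPM in LCS, to be higher there than in ConS, and to be lower in LCR than in ConR. The lists therefore differ by construction in this share, and the part of root material in the LCS values of the members was not tested.

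**Figure D5:**
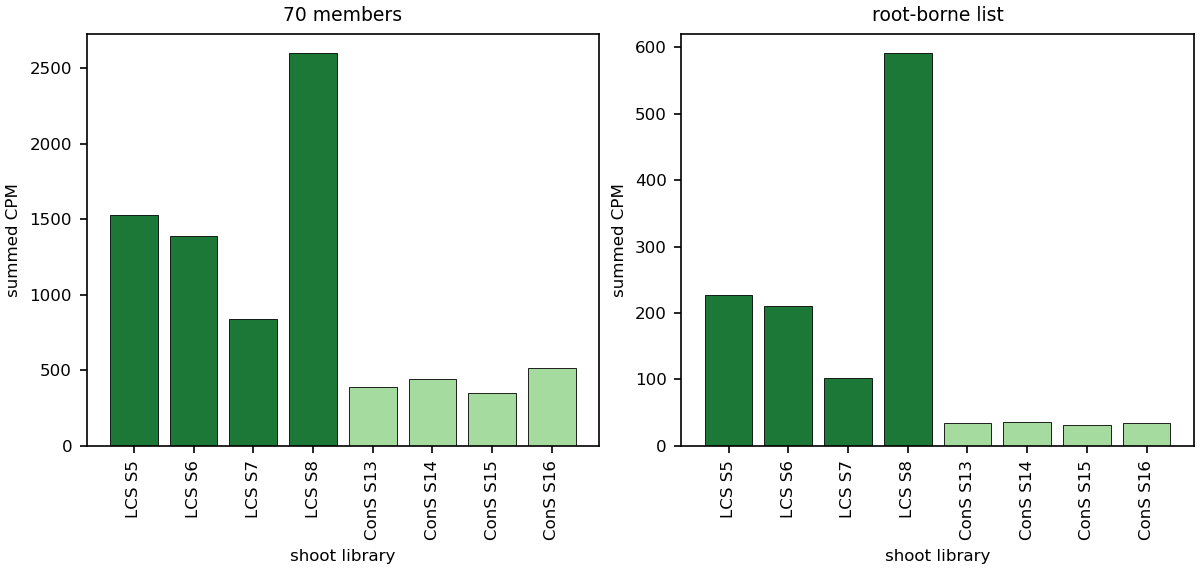
Summed CPM in each shoot library, LCS left and ConS right, for the 70 members (left panel) and for the 167 root-borne genes (right panel), with a y axis from 0 in each panel and different scales. In both panels S8 is the highest and S7 the lowest LCS library, and every LCS library exceeds every ConS library.

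The members were spread over the genome. By identifier 33 belong to subgenome A, 47.1% of the members against 49.7% of the genes tested, and 37 to subgenome B, 52.9% against 48.5%. Chromosome 2B holds 8 members (11.4%, against 6.41% of the genes tested) and 3A holds 7 (10%, against 6.87%). Chromosome 7A holds 0 members, against 4.42% of the genes tested, and the unplaced scaffolds also 0, against 1.79%. Reads that fit an A and a B copy equally well were not counted, so a member and its counterpart in the other subgenome need not have been measured with equal efficiency.

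The limits cut through a continuous range. The root ratios nearest inside the limit were 0.668 in Et_1B_010199 and 0.663 in Et_1B_010405, and the nearest outside were 0.677 in Et_5A_042702 and 0.684 in Et_4B_037368. For the shoot ratio these were 1.51 in Et_4B_037230 and 1.51 in Et_3A_025190 inside, and 1.498 in Et_2B_021629 and 1.49 in Et_6A_046317 outside. Et_2B_021629 averaged 466 CPM in LCR and 841 CPM in ConR, more than any member in ConR. For the ratio of LCR to LCS, here of plain means as in the criterion, the nearest inside were 0.512 in Et_5B_043703 and 0.525 in Et_4B_036681. The nearest outside were 0.337 in Et_7A_052570 and 0.318 in Et_4A_035747.

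Genes of calcium transport and signalling and of iron and metal transport are listed by name in the study, which chose them on the same libraries, so they are no independent evidence. Of these genes 15 met the root criteria (13.8% of the list, against 2.22% of all genes tested), 12 the shoot criteria (11.01%, against 12.1%) and 1 all criteria. Ca2+-transporting ATPases, which pump Ca2+ out of the cytosol, made up 5 of the 15 (5 of 14 measured), and 0 of 14 met the shoot criteria. Among calcium-dependent protein kinases, which bind Ca2+ and phosphorylate other proteins, 2 of 14 met the root criteria and 3 of 14 the shoot criteria. The remaining genes that met the root criteria were 3 of 17 calcium-binding proteins, 2 of 6 Nramp metal transporters, 1 of 11 cyclic nucleotide-gated channels, 1 of 3 mitochondrial H+/Ca2+ exchangers and 1 of 7 yellow stripe-like transporters. The remaining genes that met the shoot criteria were 2 of 3 Ca2+/calmodulin-dependent kinases, the 1 calcineurin B, and 1 each of 7 Ca2+ uniporters, 17 calcium-binding proteins, 5 cation/Ca2+ exchangers, 4 oligopeptide transporters, 2 vacuolar iron transporters and 7 yellow stripe-like transporters.

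CDPK12 (Et_4A_032792), a calcium-dependent protein kinase, met every criterion in plain CPM. It had 34.7, 38.5, 43.7 and 32.1 CPM in LCR, against 80.9, 71.7, 92.2 and 82.0 CPM in ConR, a ratio of 0.459. It had 11.7, 10.03, 9.56 and 10.2 CPM in LCS, against 7.01, 6.49, 6.18 and 5.13 CPM in ConS, a ratio of 1.62. The shoot ratio was 1.42 with TMM scaling and 1.41 with DESeq2 size factors, under the limit in each. CDPK13 (Et_4B_036955), a kinase of the same family on the B subgenome, had 42.1, 40.8, 52.8 and 41.0 CPM in LCR, against 95.8, 80.4, 102.4 and 92.3 CPM in ConR, a ratio of 0.479. In shoots it had 19.3, 9.93, 12.5 and 15.96 CPM in LCS, against 8.89, 8.54, 10.1 and 9.81 CPM in ConS, a ratio of 1.52. That ratio is for plain CPM only. Of the criteria CDPK13 missed only the separation of the shoot libraries, because LCS S6 lay below ConS S15. As a gene listed by name it would have been set aside in any case, like CDPK12. The A and B kinases therefore had nearly the same pattern in roots, and in shoots differed in whether the libraries overlapped.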

How the data were processed

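RNA of roots and shoots at 0.01 mM Ca2+ (LCR, LCS) or 1 mM Ca2+ (ConR, ConS) was sequenced in 16 libraries. After trimming and alignment with HISAT2 to the draft genome of tef, the authors deposited, per gene and library, the count of uniquely mapped reads from htseq-count, without normalization. CPM here is the count divided by the column total, times 1e+06. Samples were grouped by their source labels. The rule given in the report was applied to plain CPM with a pseudocount of 0.5, and a cap of 150 genes was not reached. The members, lists and tests were chosen with earlier results of these data known.

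Genes counted above 0 in 4 or more libraries (56746) were fitted in edgeR 4.0.16 (R 4.3.3) with TMM scaling, 1 term per group over all 16 libraries, glmQLFit and glmQLFTest, with Benjamini-Hochberg adjustment over all genes and a threshold of 0.05. A call means passing that threshold. Log2 fold changes are given with standard errors. Alternatives were DESeq2 1.42.0, limma 3.58.1 (voom), other scalings, filters, pseudocounts and limits, and each library left out in turn. Tables and figures were made with Python 3.11.15.

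Members named individually are the 8 with the highest shoot ratio over root ratio, the 8 highest in ConR, the 6 highest in LCS, the 3 with the largest and the 3 with the smallest ConR over ConS, the genes nearest each limit, and members with identifier numbers at most 10 apart. Names of calcium genes come from the study's own lists. Total counts set the precision: the intervals cover counting error only, and reads carry no molecular identifiers. No genome, annotation or sequence was used.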

Additional observations from a re-analysis of the deposited data

Results flagged for a closer look

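Within groups of 4 libraries, the highest or lowest library was set against the rest by Dixon's ratio for the 23 members named and for the summed level, 96 groups in all. The ratio passed its 95% critical value in 9 groups, and chance alone flags about 1 group in 20. In LCR S3, Et_2B_021532 had 18.6 CPM (12.02 to 12.8 CPM in the other LCR libraries) and Et_1B_010405 had 18.5 CPM (28.8 to 29.99 CPM). In ConR S11, Et_5A_040757 had 51.1 CPM (8.83 to 14.1 CPM in the other ConR libraries) and Et_3B_030676 had 354 CPM (143 to 179 CPM). In LCS, Et_9A_062463 had 5.76 CPM in S6 (2.61 to 2.91 CPM in the others) and Et_1B_010405 had 2.22 CPM in S7 (5.39 to 5.92 CPM). In ConS, S14 held Et_9A_062463 at 1.43 CPM (1.73 to 1.75 CPM in the others) and Et_4B_040060 at 3.14 CPM (1.55 to 1.73 CPM), and S15 held Et_3B_030676 at 36.0 CPM (46.4 to 48.4 CPM).

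The responses of shoot and root to low calcium differed in 69 of 70 members by the interaction term of the edgeR fit. The members were chosen on this difference, so the count is no independent test of it.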

How the results depend on the processing

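The criteria were met by 71 genes with plain CPM. They were met by 42 genes with DESeq2 size factors (40 of the 71 among them), by 57 with TMM scaling (49 of them), by 58 after thinning every library to the lowest depth (46 of them), by 17 with limits of 0.5 and 2, and by 319 where libraries could overlap. Leaving out 1 library gave 66 genes (without LCS S8, 65 of the 71 among them) to 125 genes (without ConR S11, 57 of the 71 among them). With a library fewer, non-overlap is easier to meet, so a higher count does not mean that the 71 were kept. Without LCS S7 and S8, an alternative chosen after seeing the data, 88 genes met the criteria. The summed ConR over ConS ratio of 16.2 was 10.7 on TMM-scaled totals and 11.04 without the 10 most abundant members.

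Members called lower in LCR than in ConR numbered 28, but 10 at an adjusted p below 0.01, 43 with DESeq2, 54 with only the 8 root libraries, and 10 to 32 with 1 library left out. Over all genes the same call was made for 755, for 1667 with DESeq2 and for 1812 with only the 8 root libraries. With 1 library left out it was made for 165 to 1601 genes. The counts of members called in LCS vs ConS, ConR vs ConS, LCR vs LCS (both directions together) and the interaction stayed within 1.5 times. Members called in both tissues (23) numbered 10 to 30 with 1 library left out and 18 to 37 otherwise, and members called in neither (4) 2 to 10 and 1 to 4. Neither count was made over all genes. Those called lower in LCR than in LCS (5) numbered 2 to 5. For the named members, 2033 of 2070 alternative fold changes moved by less than 1 SD, and no called value changed sign. The SD was that of log2 CPM (0.5 CPM added) between libraries, pooled over the groups compared. Most of the 37 that moved further were ConR vs ConS fold changes with plain library totals. That of Et_4A_032822, for example, was 6.26 instead of 5.65, so the tissue contrast depended on scaling. The shoot log2 fold change of Et_5B_044666 was 3.29 with limma-voom and 3.26 without LCS S8, and was called in neither. No paired analysis was possible because the labels number the libraries without a number shared between groups.

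Depth limits the shoot values of members with few ConS reads. No annotation was used to tell what the members encode.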
